A study of Mus musculus with 5 samples.

Results

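The p53 group described here consists of the gene of the tumour suppressor p53 (Trp53) and 9 genes of its pathway: Trp53inp1, Trp53inp2, Mdm2, Mdm4, Cdkn1a, Ccng1, Sesn1, Sesn2 and Zmat3. All probe sets that the array annotation assigned to 1 of these symbols alone were taken, which gave 23 of 45037 probe sets and 9 of 18193 genes. Trp53 had no probe set of its own in the annotation used here and was not analysed here. The group was chosen by the signal of Trp53inp1, which lay far above total RNA in all RNP-IPs, so its signals against total RNA are given as a description. The RNA came from mouse NIH/3T3 cells, a line of embryonic fibroblasts, that carried retroviral GeneSwitch vectors (pBSwitch and pSLHGC-MYC-AUF1 p42) for a myc-tagged p42 isoform of the RNA-binding protein AUF1, which is made after addition of mifepristone. Ribonucleoprotein complexes were pulled down from cell extracts with anti-c-myc agarose beads (RNP-IP), and the RNA on the beads was hybridized to Affymetrix mouse arrays. The 5 arrays held 2 independent RNP-IPs labelled induced (1 nM mifepristone for 24 h), 2 RNP-IPs labelled uninduced (the same cells with the vectors, without mifepristone) and 1 total RNA sample, whose treatment the sources used here do not give. The first 2 are named below by their label, induced or uninduced. The comparison asks which mRNAs are bound by myc-AUF1 p42. According to the methods the beads also held background RNA without selection, and the RNP-IPs without induction yielded less RNA. All cells shared the infection with both vectors and a selection with blasticidin while mifepristone was present. For the RNP-IPs the drug was added only to the cells labelled induced, so an effect of mifepristone and one of AUF1 cannot be told apart.

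Signals were log2 values after robust multiarray average (RMA), and a signal under 5 was called near background. The median signal of the arrays was 3.77 to 3.83, and 13133 to 13614 probe sets per array reached 5. Hnrnpd, the gene of AUF1, had signals of 6.72 and 7.39 for the induced label, 11.35 and 11.85 for the uninduced label and 10.60 for total RNA. Its log2 fold change, at -4.21 (SE 0.46, limma adjusted p = 0.114), ran against what the vector would give. The other Hnrnpd probe sets were lower under the same label too. The next brightest had 3.71 and 3.61 for the induced label, 8.39 and 8.52 for the uninduced label and 7.03 for total RNA, and the dimmest had 2.40 and 2.64 for the induced label, 5.15 and 4.39 for the uninduced label and 3.94 for total RNA. The sources used here do not say which of these probe sets match the AUF1 insert. From the arrays alone, whether the 2 labels were exchanged could not be settled. The paper also reports RT-PCR, where most mRNAs selected from its enriched list were again higher with myc-AUF1 p42 than without it. The labels used here give the direction of that list, which holds Trp53inp2 and Rchy1. Whether the RT-PCR used RNP-IPs other than those on the arrays is not clear from the paper, and its values were not tested here. The directions below are those of the labels, and with exchanged labels each difference between the induced and the uninduced arrays would change its sign. All 10 fibroblast markers looked at (such as Col1a1 and Vim) reached 5 in every array, while 12 of 15 measured markers of epithelial, blood, endothelial and neural cells were under 5 in every array and the other 3 were Epcam, Cd3e and Rbfox3. RNP-IP 2 labelled induced and RNP-IP 1 labelled uninduced were low in the 5′ control probe set of Gapdh, at 4.24 and 3.65, against 8.18 in RNP-IP 1 labelled induced, 7.81 in RNP-IP 2 labelled uninduced and 6.93 in total RNA. The same 2 RNP-IPs were low in the brightest probe set of Actb, with 13.41 and 11.25 for the induced label, 10.97 and 12.77 for the uninduced label and 12.99 for total RNA. The other Actb probe set ran the other way, with 7.25 and 8.77 for the induced label, 8.87 and 7.86 for the uninduced label and 8.03 for total RNA. In Rplp0 these 2 RNP-IPs were low, with 13.21 and 11.88 for the induced label, 11.50 and 13.55 for the uninduced label and 13.33 for total RNA. RNP-IP 1 labelled induced was the highest of all arrays in the 5′ controls of Gapdh and of Actb (8.18 and 11.35). The 3′ control of Gapdh had 11.90 and 9.71 for the induced label, 9.70 and 12.11 for the uninduced label and 12.32 for total RNA. Within each label its order was that of the 5′ control, so that order also follows the Gapdh signal as a whole. The order of the arrays in the 5′ control of Gapdh is set beside that of Mdm2, Cdkn1a, Ccng1, Trp53inp2, Trp53inp1 and Sesn1 below.

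p53 is a transcription factor that is stabilized after DNA damage and other stresses and then induces genes of cell cycle arrest, DNA repair, cell death and metabolism. Its level is held low by Mdm2, a ubiquitin ligase and itself a p53 target, and by the related protein Mdm4. NIH/3T3 cells are generally described as having lost the Cdkn2a locus, whose Arf product restrains Mdm2, and as keeping p53. In an RNP-IP the arrays measure mRNA on the beads and not transcription by p53, and in bulk RNA fewer cells of a type and less RNA per cell cannot be told apart.

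What most members share by definition is control by p53, which binds DNA at paired half-sites. The p53 half-site, a motif of 10 bases that reads alike on both strands, was searched as the only motif in RefSeq promoter windows of GRCm38.p6 (250 bases before to 50 after each start listed for a gene). There were 10 windows for 7 members, and 4 of the 10 windows, each of another member, held a half-site, against 8.36% of all 32851 windows. Shown here in lower case with the half-site in capitals, 5′ to 3′ on the strand of the gene, are the sites of these 4 members, whose mRNAs are all described below. The 2 runs of Cdkn1a come from the same window and overlap. Sesn1 had 2 windows, and its match belongs to a start inside the gene, whose first base is at 41810574.
Mdm2, chr10:117710925-117710954 (minus strand): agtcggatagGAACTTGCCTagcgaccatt
Cdkn1a, chr17:29090896-29090925 (plus strand): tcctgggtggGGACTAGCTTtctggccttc
Cdkn1a, chr17:29090918-29090947 (plus strand): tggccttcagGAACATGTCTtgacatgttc
Ccng1, chr11:40755452-40755481 (minus strand): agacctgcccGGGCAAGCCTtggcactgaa
Sesn1, chr10:41887256-41887285 (plus strand): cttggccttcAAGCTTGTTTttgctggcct
A match describes these letters alone. The other 3 members with windows, Mdm4, Sesn2 and Trp53inp2, had no match within them.

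Of the 23 probe sets of the group, 16 reached 5 in at least 1 array and 7 were near background in every array. With 2 arrays against 3 an exact permutation test has 10 arrangements and cannot go below p = 0.1, so differences were tested with limma over all 45037 probe sets. Following the methods, calls needed a difference of 3-fold or more with an adjusted p below 0.5. The 2 RNP-IPs labelled induced were set against the 3 control arrays (2 RNP-IPs labelled uninduced and total RNA), and separately against the 2 uninduced RNP-IPs only. Both comparisons share the RNP-IPs and are not independent of each other.

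**Figure D1:**
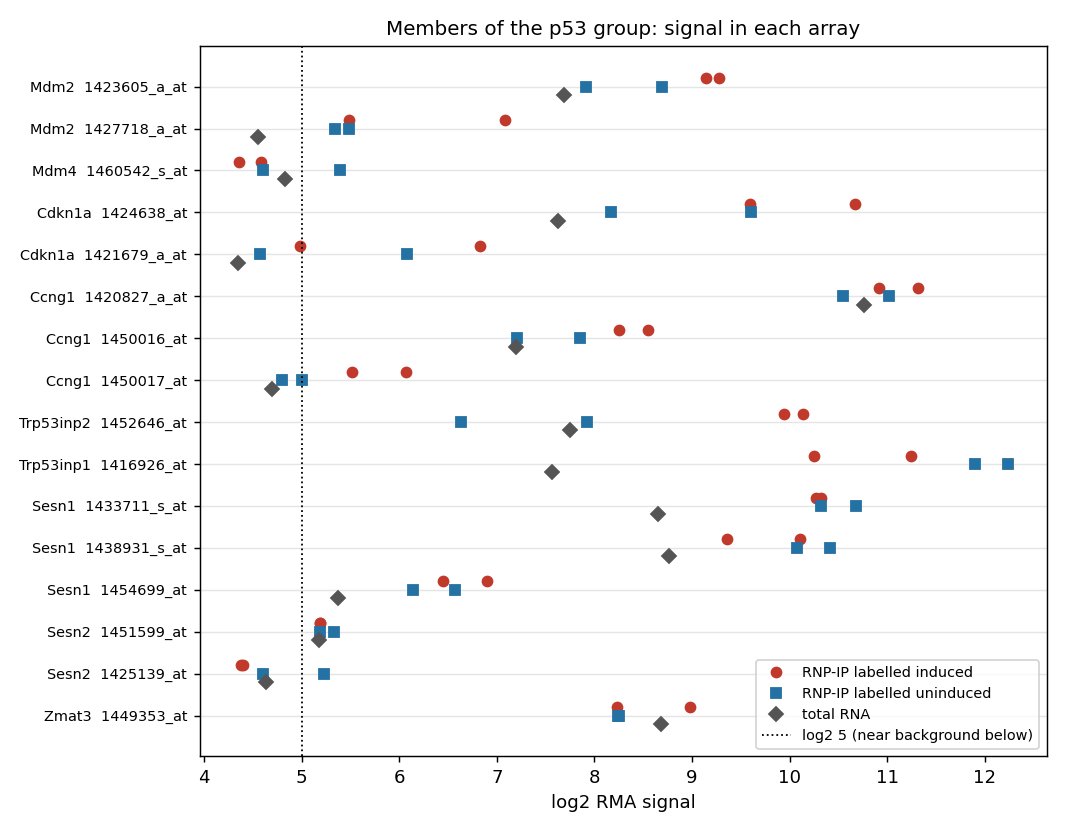
Log2 RMA signal (x axis) of the 16 probe sets of the p53 group that reached 5 in at least 1 array, with circles for RNP-IPs labelled induced, squares for RNP-IPs labelled uninduced and diamonds for total RNA. Trp53inp2 sits at 10.13 and 9.94 in the RNP-IPs labelled induced, right of all other arrays, while Trp53inp1 sits highest in those labelled uninduced (12.24 and 11.90).

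Among the regulators of p53, Mdm2 was higher in both RNP-IPs labelled induced on its brightest probe set (1423605_a_at), but by less than 3-fold, and was not called. Its signals were 9.27 and 9.15 for the induced label, 7.91 and 8.69 for the uninduced label and 7.69 for total RNA, so that both induced arrays lay above all 3 controls. The log2 fold change was 1.11 (SE 0.34, 2.16-fold, limma adjusted p = 0.388) against all controls and 0.91 (SE 0.33, limma adjusted p = 0.508) against the RNP-IPs labelled uninduced alone. A second probe set of Mdm2 (1427718_a_at) overlapped between groups, with 7.08 and 5.49 for the induced label, 5.35 and 5.49 for the uninduced label and 4.55 for total RNA. Here 1 array, RNP-IP 1 labelled induced, stood above the rest, and the log2 fold change against all controls was 1.15 (SE 0.61, limma adjusted p = 0.671). Without RNP-IP 2 labelled induced it was 1.95 (limma adjusted p = 0.349) and past the limits. On both probe sets RNP-IP 1 labelled induced was above RNP-IP 2 labelled induced and RNP-IP 2 labelled uninduced above RNP-IP 1 labelled uninduced, as in the 5′ control of Gapdh, and the part of RNA integrity in these values was not tested. The third Mdm2 probe set lay between 3.06 and 3.31 in all arrays.

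Mdm4, which binds p53 and blocks its activation of target genes, was near background. On the only 1 of its 4 probe sets that reached 5 (1460542_s_at), signals were 4.35 and 4.58 for the induced label, 4.60 and 5.39 for the uninduced label and 4.83 for total RNA. Both induced arrays lay below the controls, but by 0.02 at the nearest array, and no fold is given at this level. The other 3 probe sets lay between 3.74 and 4.91.

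Cdkn1a, which encodes the cyclin-dependent kinase inhibitor p21 and mediates cell cycle arrest by p53, overlapped between the groups. Its brightest probe set (1424638_at) had 10.67 and 9.59 for the induced label, 8.17 and 9.60 for the uninduced label and 7.63 for total RNA. RNP-IP 2 labelled induced and RNP-IP 2 labelled uninduced were nearly equal, so the groups overlapped. The log2 fold change was 1.66 (SE 0.75, limma adjusted p = 0.599) against all controls and 1.25 (SE 0.75, limma adjusted p = 0.721) against the RNP-IPs labelled uninduced, neither of them called. When only probe sets with a mean of at least 5 were tested, the same fold had an adjusted p of 0.232 in limma and was called. The dimmer probe set (1421679_a_at) had 6.83 and 4.98 for the induced label, 4.57 and 6.08 for the uninduced label and 4.35 for total RNA, a log2 fold change of 0.90 (SE 0.86, limma adjusted p = 0.742). On both probe sets, RNP-IP 1 labelled induced was above RNP-IP 2 labelled induced, and RNP-IP 2 labelled uninduced was above RNP-IP 1 labelled uninduced, the same order as in the 5′ control of Gapdh. The part of RNA integrity in these values was not tested.

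Ccng1, the gene of cyclin G1 and an early known p53 target, was higher in both arrays labelled induced on 2 of its 3 probe sets, each by less than 3-fold, and was not called. On 1450016_at the signals were 8.25 and 8.55 for the induced label, 7.85 and 7.21 for the uninduced label and 7.19 for total RNA, a log2 fold change of 0.98 (SE 0.26, 1.98-fold, limma adjusted p = 0.323). On 1450017_at they were 6.07 and 5.51 for the induced label, 5.01 and 4.80 for the uninduced label and 4.70 for total RNA, a log2 fold change of 0.95 (SE 0.21, 1.94-fold, limma adjusted p = 0.256). In both cases the 2 induced arrays exceeded the 3 controls. The brightest probe set (1420827_a_at) did not separate the groups, with 10.92 and 11.32 for the induced label, 11.02 and 10.55 for the uninduced label and 10.76 for total RNA, and its log2 fold change was 0.34 (SE 0.21, limma adjusted p = 0.682). The 3 probe sets are annotated to the same accession and were not measured on separate RNA, so they are not replicates of each other. Within the labels the order of the arrays on 1450016_at and 1420827_a_at was the reverse of that in the 5′ control of Gapdh. On 1450017_at it was the same as in that control for the induced pair and the reverse for the uninduced pair, and the part of RNA integrity was not tested.

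Trp53inp2 was the only member of the group that was called. It encodes a nuclear protein that moves to the cytoplasm and takes part in the formation of autophagosomes, and is named for its relation to Trp53inp1. Its probe set 1452646_at had 10.13 and 9.94 for the induced label, 6.63 and 7.92 for the uninduced label and 7.75 for total RNA. The 2 arrays labelled induced were within 0.19 of each other and more than 2.0 above the highest control. The log2 fold change was 2.60 (SE 0.46, 6.07-fold, limma adjusted p = 0.195) against all controls and 2.76 (SE 0.54, 6.77-fold, limma adjusted p = 0.282) against the RNP-IPs labelled uninduced alone. Trp53inp2 is also in the study's list of enriched mRNAs, which was drawn from these same arrays, so that list is no independent evidence. Without RNP-IP 1 labelled induced, the comparison with the RNP-IPs labelled uninduced gave 2.66 (limma adjusted p = 0.557) and no call. A second probe set (1444396_at) was near background, at 3.39 in all 4 RNP-IPs and 3.26 in total RNA. The lowest array was RNP-IP 1 labelled uninduced, which was also low in the 5′ control of Gapdh. Within both labels the order of the arrays was that of this control, and the part of RNA integrity was not tested.

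Trp53inp1, a p53-inducible nuclear protein that takes part in cell death and autophagy, showed another order of the arrays. Its probe set 1416926_at had 10.25 and 11.25 for the induced label, 12.24 and 11.90 for the uninduced label and 7.56 for total RNA. All 4 RNP-IPs were thus above total RNA, which is what the group was selected on, and the RNP-IPs labelled uninduced were the highest. The mean of the RNP-IPs labelled induced was 3.18 above total RNA (9.09-fold) and that of the RNP-IPs labelled uninduced was 4.50 above it (22.7-fold). Among 18193 genes this was rank 4 for the uninduced mean minus total RNA and rank 8 for the lowest RNP-IP minus total RNA. Total RNA was 1 array, so these values have no replicate check on that side.

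Total RNA does not enter the difference between the RNP-IPs labelled induced and those labelled uninduced, which for Trp53inp1 was -1.32 (SE 0.44, 2.50-fold lower, limma adjusted p = 0.470). The groups did not overlap, but the fold stayed under 3 and the probe set was not called. Without RNP-IP 2 labelled induced the difference was -1.82 (limma adjusted p = 0.338) and past the limits. Against the 3 controls as 1 group the log2 fold change was 0.18 with an SE of 1.72, as the controls included both the highest and the lowest arrays. The other probe set (1416927_at), annotated to the same accession, was near background at 2.97 to 3.65. Within each label the arrays of Trp53inp1 ran in the reverse order of the 5′ control of Gapdh, with RNP-IP 2 labelled induced and RNP-IP 1 labelled uninduced the higher of their pairs, and the part of RNA integrity was not tested. The direct difference between Trp53inp1 and Trp53inp2 was not tested.

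The 5 genes whose profile over the 5 arrays, centred on the mean of each probe set, was nearest to that of Trp53inp1 were Abi3bp, Ptn, Tcp11l2, Purg and Crebrf. The Euclidean distances were 0.508 for Abi3bp, 0.616 for Ptn, 0.648 for Tcp11l2, 1.15 for Purg and 1.24 for Crebrf. They were picked for likeness, and the arrays share 1 total RNA sample, so the values describe them only. Ptn, which encodes the secreted growth factor pleiotrophin, had 6.29 and 7.64 for the induced label, 9.09 and 8.58 for the uninduced label and 4.13 for total RNA. Crebrf, a regulator of the transcription factor CREB3, had 6.98 and 7.28 for the induced label, 8.08 and 7.82 for the uninduced label and 4.83 for total RNA. In both, as in Trp53inp1, the 2 arrays labelled uninduced were highest and total RNA lowest, here near background.

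Sesn1 encodes a sestrin, a stress-inducible protein that restrains the growth kinase complex mTORC1. It was above total RNA in all RNP-IPs while the arrays of the induced and the uninduced label overlapped. The brightest probe set (1433711_s_at) had 10.27 and 10.32 for the induced label, 10.68 and 10.32 for the uninduced label and 8.65 for total RNA. On 1438931_s_at the signals were 9.36 and 10.11 for the induced label, 10.41 and 10.08 for the uninduced label and 8.77 for total RNA. On 1454699_at they were 6.45 and 6.90 for the induced label, 6.14 and 6.58 for the uninduced label and 5.38 for total RNA. In all 3 probe sets only total RNA stood apart. Between the induced and the uninduced label the log2 fold changes were -0.20 (SE 0.16), -0.51 (SE 0.34) and 0.31 (SE 0.26), each with an adjusted p of 0.721 from limma. Against all controls they were 0.41 (SE 0.71), -0.02 (SE 0.61) and 0.64 (SE 0.42), with adjusted p of 0.685 to 1.000 from limma. On the 2 brighter probe sets the RNP-IPs of each label ran in the reverse order of the 5′ control of Gapdh, on 1454699_at those labelled induced did so and those labelled uninduced did not, and the part of RNA integrity was not tested. The fourth probe set of Sesn1 was near background at 3.04 to 3.36.

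Sesn2, the related sestrin, lay close to the background limit. On 1451599_at it had 5.19 in both arrays of the induced label, 5.33 and 5.19 for the uninduced label and 5.18 for total RNA, a range of 0.15. On 1425139_at it had 4.38 and 4.40 for the induced label, 4.60 and 5.23 for the uninduced label and 4.63 for total RNA. There the arrays labelled induced were the lowest, near background as most controls were, and no fold is given.

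Zmat3 encodes a zinc finger protein that binds RNA and is induced by p53. Its only probe set (1449353_at) had 8.23 and 8.97 for the induced label, 8.25 in both arrays of the uninduced label and 8.68 for total RNA. The 2 arrays labelled induced were the lowest and the highest of all, so that the groups overlapped. The log2 fold change was 0.21 (SE 0.29, limma adjusted p = 0.818) against all controls and 0.36 (SE 0.31, limma adjusted p = 0.721) against the RNP-IPs labelled uninduced. Of the 9 genes it was the only one with a brightest probe set above 5 in every array that was not above total RNA in most RNP-IPs, as 3 of 4 lay below it. Mdm4, near background in most arrays, was also below total RNA in most RNP-IPs on its brightest probe set.

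**Figure D2:**
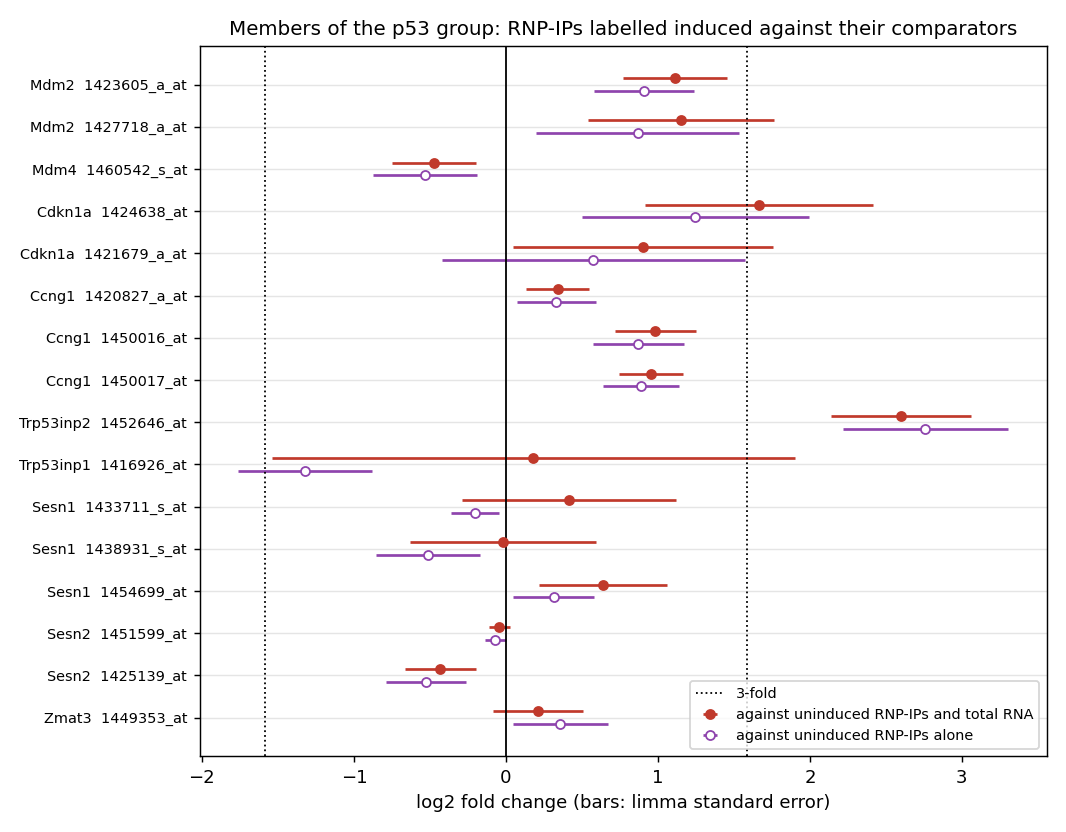
Log2 fold change (x axis) of the RNP-IPs labelled induced against all 3 controls (filled circles) and against the uninduced RNP-IPs only (open circles), with bars of 1 limma SE and dotted lines at 3-fold, for the 16 probe sets that reached 5. Only Trp53inp2 (2.60 and 2.76) is called, and Trp53inp1 has the widest bar against all controls (SE 1.72).

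Counted over the group, 1 of 23 probe sets was called higher against all controls and 0 were called lower, where 1.16% of all probe sets were called higher and 1.67% lower. Among probe sets that reached 5 in some array, it was 1 of 16 members called higher and 0 lower, where 3.32% of 15720 probe sets were called higher and 4.78% lower. Both induced arrays exceeded the 3 controls in 4 of the 16 (Mdm2, Ccng1 on 2 probe sets and Trp53inp2), where 16.4% of the 15720 did so, and lay below all 3 in 2 (Mdm4 and Sesn2, both near background), where 22.5% did so. A probe set can reach 5 through the group where it is high, so these counts are descriptions. Against the RNP-IPs labelled uninduced alone, 1 of the 16 was called higher and 0 lower (3.52% and 5.48% of the 15720). Both arrays labelled induced lay above both arrays labelled uninduced in 4 of the 16 (22.0% of the 15720) and below them in 3 (29.9% of the 15720), the third being Trp53inp1. The median log2 fold change of the 16 was 0.53 against all controls, where that of the 15720 was -0.12, and 0.34 against the RNP-IPs labelled uninduced, where that of the 15720 was -0.07. The 16 had log2 fold changes above 0 in 12 cases against all controls and in 10 against the RNP-IPs labelled uninduced.

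No probe set on the arrays had both a 3-fold difference and an adjusted p under 0.05 in limma, in either comparison. Against all controls 4834 probe sets (10.7%) had an unadjusted p under 0.05, 4 of them among the 23 of the group, and the smallest adjusted p was 0.0522 on the arrays and 0.195 in the group, from limma. Against the RNP-IPs labelled uninduced alone 5201 probe sets (11.5%) had an unadjusted p under 0.05, 2 of them among the 23 of the group, and the smallest adjusted p in the group was 0.282, from limma. All 4 member probe sets in the first count were those of Mdm2, Ccng1 and Trp53inp2 whose groups did not overlap.

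The signals against total RNA, on which Trp53inp1 was selected, are listed for the other members as a description and nothing is read from their counts. Of the 16 probe sets 11 lay above total RNA in all 4 RNP-IPs, where 18.5% of the 15720 did so, and 0 lay below it in all 4, where 28.5% did so. In 2 of them, Trp53inp1 and the brightest probe set of Sesn1, all 4 RNP-IPs were at least 3-fold above total RNA, where 0.585% of the 15720 were. The mean of the RNP-IPs minus total RNA was 1.65 in those labelled induced and 1.85 in those labelled uninduced for Sesn1 (1433711_s_at). For Cdkn1a (1424638_at) it was 2.50 in those labelled induced and 1.25 in those labelled uninduced. For Mdm2 (1423605_a_at) it was 1.52 in those labelled induced and 0.61 in those labelled uninduced. Trp53inp2 was 2.29 above total RNA in the RNP-IPs labelled induced, while the RNP-IPs labelled uninduced were at -0.47. By these means Sesn1, Cdkn1a, Mdm2 and Trp53inp1 were above total RNA under both labels, and Trp53inp2 under the induced label. Over the 16 probe sets the median of RNP-IPs minus total RNA was 1.25 in those labelled induced and 0.47 in those labelled uninduced, where that of the 15720 was -0.11 and -0.07.

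**Figure D3:**
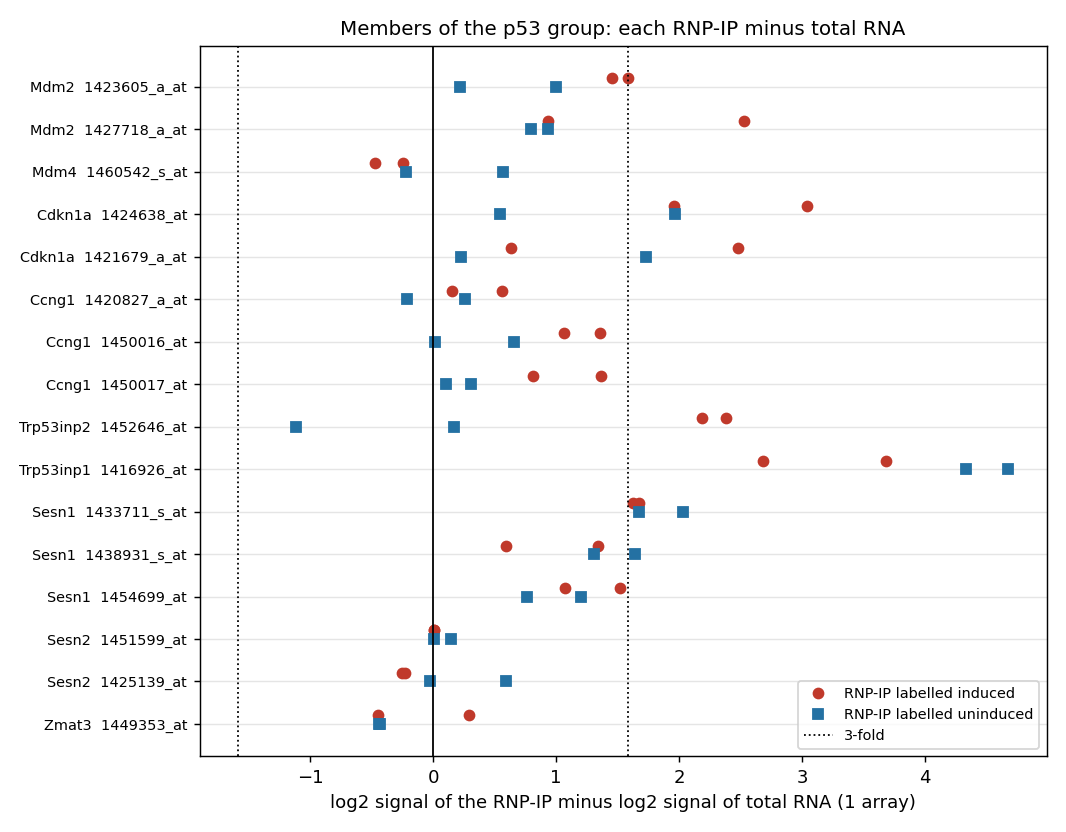
Log2 signal of each RNP-IP minus that of total RNA (x axis) for the 16 probe sets of the p53 group that reached 5, with circles for RNP-IPs labelled induced, squares for those labelled uninduced and dotted lines at 3-fold. Both circles of Trp53inp1 lie left of its squares (means 3.18 and 4.50), whereas in Trp53inp2 both circles lie right of the squares (means 2.29 and -0.47).

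Other genes of the p53 pathway were taken from 3 lists, with each gene represented by its probe set of the highest mean signal. Against all controls 1.32% of all 18193 genes were called higher and 2.36% lower by this measure. At an unadjusted p under 0.05 in limma, 5.99% of the 18193 genes were higher and 7.43% lower, which is the background for the counts at that level below. The median log2 fold change was -0.13 over the genes that reached 5 in some array, and the 9 members had a median of 0.34.

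Of 20 p53 target genes of arrest and repair, all measured, 0 were called in either direction by limma, while at an unadjusted p under 0.05 there were 0 higher and 1 lower (Fbxw7). Of the 16 that reached 5 in some array 6 had a log2 fold change above 0 and 10 below, with a median of -0.18. The lowest was Fbxw7, the substrate receptor of a ubiquitin ligase, with 6.42 and 6.63 for the induced label, 8.13 and 8.34 for the uninduced label and 7.80 for total RNA. Its other probe set had a log2 fold change of -0.65 against all controls. On the brightest one both arrays labelled induced were below all controls, and the log2 fold change of -1.57 (SE 0.19, limma adjusted p = 0.128) was just short of 3-fold. Against the RNP-IPs labelled uninduced alone it was -1.71 (limma adjusted p = 0.139) and called lower, and against the controls without RNP-IP 2 labelled induced it was -1.67 (limma adjusted p = 0.262) and also called. Next were E2f7, a repressor of cell cycle genes, at -1.21, the cyclin D1 gene Ccnd1 at -1.08 and Rrm2b, a ribonucleotide reductase subunit, at -1.04, none of them called. The highest were Gtse1 at 0.63, the replication clamp gene Pcna at 0.58, the damage recognition gene Xpc at 0.56 and the phosphatase gene Ppm1d at 0.49, none of them called. The other probe set of Ppm1d had 0.03.

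Of 28 p53 target genes of cell death and metabolism 22 were measured, of which 0 were called higher and 1 lower by limma, while at an unadjusted p under 0.05 there were 4 higher and 1 lower. Among the 19 that reached 5 in some array 13 had a log2 fold change above 0 and 6 below, with a median of 0.16. The called gene was Apaf1, which forms the apoptosome that activates caspases. It had 6.42 and 8.04 for the induced label, 9.26 and 8.99 for the uninduced label and 8.31 for total RNA, a log2 fold change of -1.63 (SE 0.62, 3.09-fold lower, limma adjusted p = 0.498). This was at the limit of both criteria, RNP-IP 1 labelled induced being 1.62 below its replicate, and without that array the log2 fold change was -0.82 (limma adjusted p = 0.749) and not called. The call was also lost without RNP-IP 1 labelled uninduced (-1.42, limma adjusted p = 0.688), RNP-IP 2 labelled uninduced (-1.56, limma adjusted p = 0.774) or total RNA (-1.90, limma adjusted p = 0.506), the last being the comparison with the uninduced RNP-IPs only. Within each label the arrays ran in the reverse order of the 5′ control of Gapdh, and the part of RNA integrity was not tested. The second Apaf1 probe set had 0.37. Also low but not called were Thbs1 at -1.31 and the sestrin gene Sesn3 at -1.02, while Pml was near background in most arrays and no fold is given. The other probe set of Sesn3 had 0.73 and that of Thbs1 had -0.46. The highest were Casp6, an executioner caspase, at 1.12, Ei24 at 1.04 (SE 0.80) and Eda2r at 1.02, not called. Ei24 had 11.13 and 10.77 for the induced label, 8.54 and 10.90 for the uninduced label and 10.30 for total RNA. Its groups overlapped, and its lowest array was RNP-IP 1 labelled uninduced, which was also low in the 5′ control of Gapdh. For Ei24 too, the part of RNA integrity was not tested. The other probe set of Casp6 had 0.04. Pmaip1, the gene of the BH3-only protein Noxa, was near background in all arrays and no fold is given. Casp6 had 9.43 and 9.38 for the induced label, 7.91 and 8.96 for the uninduced label and 7.99 for total RNA, so that the groups did not overlap (limma adjusted p = 0.435). Ddit4, which like the sestrins restrains mTORC1, was the only gene of the list at least 3-fold above total RNA in all RNP-IPs, with 10.00 and 9.87 for the induced label, 10.22 and 10.46 for the uninduced label and 8.28 for total RNA.

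Of 28 regulators and partners of p53 27 were measured, and 1 was called higher and 1 lower by limma, while at an unadjusted p under 0.05 there were 2 higher and 7 lower. Among the 21 that reached 5 in some array 8 had a log2 fold change above 0 and 13 below, with a median of -0.39. Rchy1, which encodes the p53 ubiquitin ligase Pirh2, was called higher, with 8.11 and 8.09 for the induced label, 5.99 and 6.54 for the uninduced label and 6.79 for total RNA. Both induced arrays exceeded all 3 controls, and the log2 fold change was 1.66 (SE 0.27, 3.15-fold, limma adjusted p = 0.173). Like Trp53inp2, it is in the study's list of enriched mRNAs from these arrays. Without RNP-IP 1 labelled uninduced it was 1.43 and under 3-fold. Atr, a kinase of the DNA damage response, was called lower, with 3.38 and 3.66 for the induced label, 4.44 and 5.41 for the uninduced label and 5.99 for total RNA (limma adjusted p = 0.367). As both arrays labelled induced were near background, this is at least 1.21-fold lower, and its other probe sets had log2 fold changes of -0.15 and -0.21. Leaving out any 1 array other than RNP-IP 1 labelled uninduced ended this call, and with only the uninduced RNP-IPs as controls Atr was not called.

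None of the other measured regulators was called. Usp7, a deubiquitinase that acts on Mdm2 and p53, stood at a log2 fold change of -1.21 (SE 0.22, limma adjusted p = 0.205). The other probe sets of Usp7 had -0.88 to 0.35. Cop1, a ubiquitin ligase for p53, had 7.92 and 7.88 for the induced label, 9.11 and 8.79 for the uninduced label and 8.96 for total RNA, a log2 fold change of -1.06 (SE 0.11, limma adjusted p = 0.111). Both arrays labelled induced were below all controls, at 2.08-fold. The ribosomal protein gene Rpl11, whose product binds Mdm2, had -0.80. The kinase gene Hipk2 had 1.46, Cdkn2a 1.42 and the p53 inhibitor gene Ppp1r13l 0.78, none of them called. Ppp1r13l had 8.44 and 6.92 for the induced label, 6.92 and 6.89 for the uninduced label and 6.88 for total RNA. Only RNP-IP 1 labelled induced stood above the rest. The other probe sets of Ppp1r13l had 0.12 to 0.32, and those of Hipk2 had -0.08 to 1.24. Cdkn2a had 7.06 and 6.45 for the induced label, 5.73 in both arrays of the uninduced label and 4.58, near background, in total RNA. This probe set thus read above the background limit in all 4 RNP-IPs, although the locus is described as lost in this line.

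**Figure D4:**
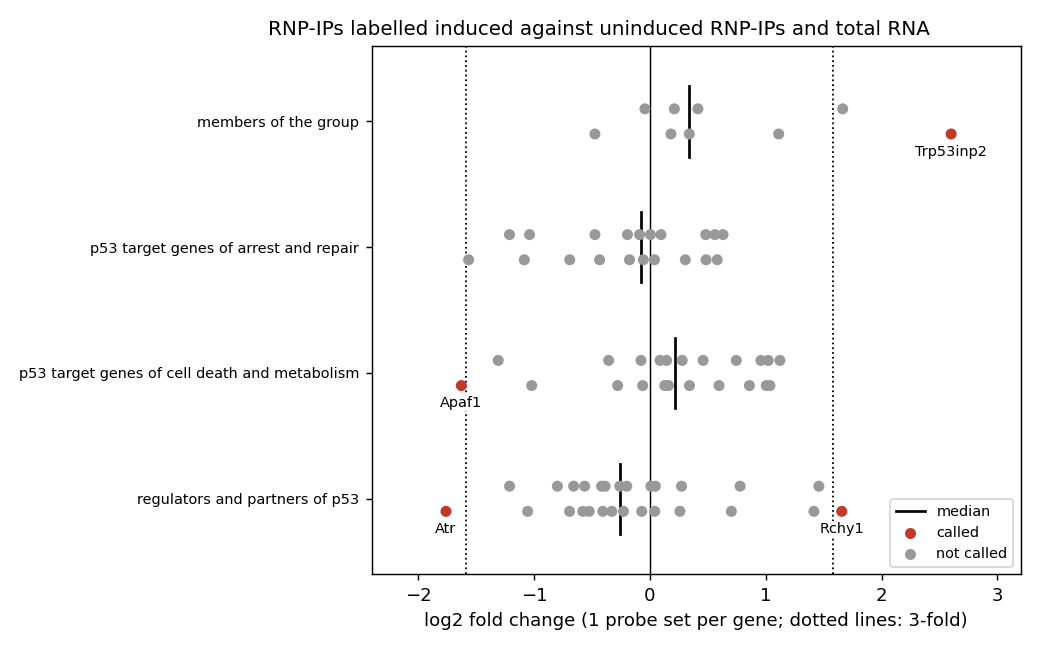
Log2 fold change (x axis) of the RNP-IPs labelled induced against the 3 controls for the 9 members and the measured genes of the 3 lists (20, 22 and 27 genes), 1 point per gene with the median as a vertical line, called genes in red and dotted lines at 3-fold. Trp53inp2 (2.60) and Rchy1 (1.66) are called higher and Apaf1 (-1.63) and Atr (-1.76, a near-background value) are called lower.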

How the data were processed

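RNA of RNP-IPs and of total RNA was amplified with the labelling protocol of 2 cycles and hybridized by the authors, who normalized the signals by RMA (version not given in the sources used here) and deposited log2 values of 45101 probe sets. Values ran from 2.32 to 14.86. Of these, 64 array controls were set aside and 45037 were tested without a filter. RMA gave identical values in some arrays for 55.1% of probe sets. Symbols came from the platform annotation, updated through Entrez identifiers (34945 probe sets with 1 gene, 932 with several, 9160 with none).

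Tests were made with limma 3.58.1 in R 4.3.3 (lmFit, eBayes), Benjamini-Hochberg adjusted over all probe sets, with 3 residual degrees of freedom against all controls and 2 in the fit of 3 groups. The script was tested on simulated data. Members and lists were chosen with earlier results of these data known. Named were all member probe sets, of each list the called genes and up to 4 with the largest log2 fold change in each direction, the 5 nearest profiles to Trp53inp1, and Hnrnpd with reference genes (Gapdh, which has only array controls here, Actb and Rplp0). Ddit4 was named after its values were seen. A fold against a group wholly under 5 was computed against 5, and none is given where the means of both groups were under 5. The number of arrays limits the precision, and p-values against the uninduced label alone measure the spread between these RNP-IPs. Against all controls the spread also includes the difference between total RNA and the RNP-IPs labelled uninduced.

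Alternatives were median centring, cyclic loess, a minimum mean of 5, a mean-variance trend, the replicate number as a block and leaving out each array. A crossed block was added after seeing the data. Presence calls, Trp53 and protein sequences were not used here.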

Additional observations from a re-analysis of the deposited data

How the results depend on the processing

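Trp53inp2 was called higher under every alternative run apart from the replicate block and, in the comparison with the uninduced RNP-IPs only, without RNP-IP 1 labelled induced. With the replicate block, which uses 4 arrays, 292 probe sets were called higher and 370 lower in place of 523 and 751 against all controls and of 554 and 861 against the RNP-IPs labelled uninduced, and 0 members were called (Trp53inp2 2.76, limma adjusted p = 0.553), nor were Apaf1 (limma adjusted p = 0.701) and Atr (limma adjusted p = 0.545). The deviations of RNP-IPs with the same number correlated at r = -0.497 across probe sets, so the numbers did not pair the samples, and the crossed block, added after seeing the data, called 646 probe sets higher and 968 lower, and 1 member. Leaving out 1 array gave 371 to 566 probe sets called higher and 383 (without RNP-IP 2 labelled uninduced) to 1069 lower against all controls, with 407 lower without RNP-IP 1 labelled induced, and 510 to 794 higher and 535 (without RNP-IP 1 labelled induced) to 1237 lower against the RNP-IPs labelled uninduced. Members called higher were then 1 to 2 against all controls and 0 to 2 against the RNP-IPs labelled uninduced, and members called lower were 0 to 1 against those labelled uninduced, the changes being those of Trp53inp2, Mdm2 (1.66 against the RNP-IPs labelled uninduced without RNP-IP 2 labelled induced) and Trp53inp1. The minimum mean of 5 gave 2 members called higher, with Cdkn1a added. Directions turned in members that were not called. Against all controls, leaving out 1 array gave log2 fold changes of -1.32 to 1.02 for Trp53inp1 (-1.32 also with the block), -0.0228 to 1.83 for Cdkn1a (1421679_a_at), -0.20 to 0.81 for Sesn1 (1433711_s_at, -0.20 also with the block), -0.51 to 0.35 for Sesn1 (1438931_s_at, 0.0594 with cyclic loess), -0.0690 to 0.00439 for Sesn2 (1451599_at) and -0.16 to 0.58 for Zmat3. Against the RNP-IPs labelled uninduced it gave -0.35 to 1.5 for Cdkn1a (1421679_a_at) and -0.0145 to 0.73 for Zmat3. In the lists, leaving out 1 array gave 0 to 2 genes of arrest and repair called lower (Fbxw7, Rrm2b or Ccnd1), 0 to 1 of cell death and metabolism called lower (Apaf1 without RNP-IP 2 labelled induced, but Thbs1 without RNP-IP 1 labelled uninduced), 1 to 2 regulators called higher (Rchy1, with Cdkn2a added without RNP-IP 2 labelled induced, but Hipk2 in place of Rchy1 without RNP-IP 1 labelled uninduced) and 0 to 1 lower (Atr). Cyclic loess ended the Apaf1 call (0 lower), the minimum mean of 5 left out Atr (0 lower), and the probe set of the largest fold gave 2 regulators called lower. The causes of these changes were not tested. Some settings also had fewer arrays or probe sets, and the part of that was not tested either.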
